A study of Homo sapiens with 8 samples.

Results

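The HOX cluster genes are the homeobox transcription factor genes named HOXA, HOXB, HOXC or HOXD plus a number. They were picked by symbol, antisense genes left out, through the RefSeq accession that the array files give for a probe. There are 39 such symbols in the RefSeq table, 38 of which had a probe (HOXA6 had none) and 32 of which were tested, among 28850 genes tested in all. LNCaP cells, an established androgen-responsive human prostate cancer line, were transfected with an siRNA against GATA2, a zinc-finger transcription factor that opens chromatin for the androgen receptor, or with a scrambled control siRNA, and the study asked which genes change when GATA2 is silenced. Both groups received 30 nM siRNA and RNA was taken after 72 h. Agilent one-colour arrays measured each group, 4 per group, called siGATA2 and siControl arrays below. One line was used, and no source says whether the 4 arrays of a group come from separate cultures, so the p-values measure the spread between these arrays, which may be technical.

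HOX genes sit in 4 clusters, HOXA on chromosome 7, HOXB on chromosome 17, HOXC on chromosome 12 and HOXD on chromosome 2, and the number of a gene is its paralogue group, which follows its place along the cluster. Genes of the low groups act toward the head of the embryo and those of the high groups toward the tail, and adult tissues keep part of this code. The prostate, a posterior organ, uses genes of group 13. HOXB13 among them is a lineage factor of the luminal prostate cell that binds chromatin together with the androgen receptor. Whole clusters are held silent by Polycomb proteins and opened by trithorax proteins, and retinoic acid is a classic inducer of their genes.

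The targeted gene was examined first. The single GATA2 probe gave a normalized log2 signal of 12.61, 12.54, 11.57 and 11.40 on siGATA2 arrays 1 to 4 and of 11.74, 11.28, 11.10 and 11.29 on siControl arrays 1 to 4. The log2 fold change, siGATA2 mean minus siControl mean, was 0.68 ± 0.312 (SE, standard error, limma adjusted p = 0.154), so the GATA2 transcript was not lower on the arrays labelled siGATA2. The paper reports by Western blot that GATA2 protein fell strongly in LNCaP cells given the siRNA, a measure of protein and not of the RNA on these arrays. The cause of this difference was not tested, and the labels are used below as the submitters gave them. As to the cells, the 10 luminal prostate markers, HOXB13 included, were well above background on all 8 arrays, with a mean level of 14.34 to 14.85 on the siGATA2 arrays and 15.10 to 15.17 on the siControl arrays. By the same fit 5 of them were lower and 1 was higher on the siGATA2 arrays, beside 14.2% and 12.3% of all genes. The rise was that of KRT8, a luminal keratin, at 0.56. Of 14 markers of basal, stromal, endothelial, immune and neuroendocrine cells, 12 were tested, 3 of which were well above background on all 8 arrays (COL1A1, VWF and PTPRC), with a mean level of 5.36 to 5.60 on the siGATA2 arrays and 5.48 to 5.73 on the siControl arrays. Of these 12, 2 were lower (PDGFRB and VWF) and 2 were higher (PTPRC and CD68), or 16.7% each way beside the same shares of all genes, and their part in the results below was not tested. KRT5 and COL3A1 did not pass the filter on dim probes. In RNA of a whole culture, fewer cells with a transcript and less of it per cell cannot be told apart.

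The arrays were not equally good. Of the 38 HOX probes, 28 to 33 were well above background on the siGATA2 arrays, 28 and 26 on siControl arrays 2 and 4, and 22 and 17 on siControl arrays 1 and 3. Negative controls spread most on these, with an SD of 4.49 and 7.26 intensity units where the rest had 1.78 to 2.40. Over all arrays 16 HOX genes were well above background on every array, 18 on 1 to 7 arrays and 4 on none. The filter, a mean log2 signal of 3, left out 6 genes, HOXB1, HOXB3, HOXB8, HOXC11, HOXD4 and HOXD12. A further 4 genes, HOXA2, HOXD3, HOXD8 and HOXD11, were not well above background on any siControl array, and the lowest signal that counted as above background there was too high for a bound, so no fold is given for them.

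Of the 32 HOX genes tested, 4 were lower and 4 were higher on the siGATA2 arrays at an adjusted p under 0.05. This was 12.5% in each direction, beside 14.2% of all genes called lower and 12.3% called higher, so the share of HOX genes that changed was close to that of the array as a whole. The genes that fell were HOXA7, HOXB9, HOXB13 and HOXD13, and those that rose were HOXA4, HOXA5, HOXA13 and HOXC13. HOXA7, HOXB9 and HOXD13 fell by at least 2-fold (3 of 32, against 7.13% of all genes) and HOXA13 rose by at least 2-fold (1 of 32, against 4.52%). The groups did not overlap for 10 of the 32 HOX genes, which is 31.2%, beside 32.6% of all genes. The median log2 fold change was 0.14 for the HOX genes and 0.09 for all genes. Without siControl arrays 1 and 3 the HOX genes called were 3 lower and 3 higher, beside 12.9% and 9.37% of all genes. HOXA4, HOXA5, HOXA13 and HOXB13 were then not called, and HOXA9 and HOXC4 were called higher, so that HOXC13 was the only rise of the 4 that kept its call.

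By cluster, 1 HOXA gene fell and 3 rose among 10, 2 HOXB genes fell and none rose among 7, none fell and 1 rose among 8 HOXC genes, and 1 fell and none rose among 7 HOXD genes. The median log2 fold change was 0.26 in HOXA, -0.40 in HOXB, 0.07 in HOXC and 0.27 in HOXD, with the fitted values of the 4 genes without a fold counted in. By place along the cluster, none of the 6 anterior genes (groups 1 to 3) was called, 1 of the 12 central genes (groups 4 to 8) fell and 2 rose, and of the 14 posterior genes (groups 9 to 13) 3 fell and 2 rose. All 4 genes of group 13 were called, 2 in each direction. Of 23 alternative settings, HOXA13 was called in only 13 and HOXB13 in 17, and the HOXD13 probe was dim. For all of these counts, the shares of all genes were 14.2% called lower and 12.3% called higher. Well above background on all 8 arrays were 1 anterior, 7 central and 8 posterior genes. By cluster these were 6 HOXA, 5 HOXB, 5 HOXC and 0 HOXD genes. The differences between clusters and between regions, and the part of dim probes in them, were not tested.

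Promoter sequences from RefSeq (GRCh38.p14), the 250 bases before a gene's start, are shown for the genes with a fold of at least 2 that the table holds (HOXA7, HOXA13, HOXD13), for the start shared by HOXC4 and HOXC5, both higher on siGATA2 arrays 1 and 2 than on siGATA2 arrays 3 and 4, and for HOXD3, which holds a GATA site motif. They are written 5′ to 3′ along the gene's strand, in lower case, with every GATA or TATC, the core of the GATA site on either strand, in capitals.
HOXA7, chr7:27156676-27156925, minus strand: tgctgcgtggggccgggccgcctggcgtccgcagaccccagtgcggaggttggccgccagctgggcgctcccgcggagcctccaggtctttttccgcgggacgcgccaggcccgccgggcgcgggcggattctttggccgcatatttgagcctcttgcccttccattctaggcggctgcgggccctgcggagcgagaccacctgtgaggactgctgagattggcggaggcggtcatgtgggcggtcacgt
HOXA13, chr7:27200092-27200341, minus strand: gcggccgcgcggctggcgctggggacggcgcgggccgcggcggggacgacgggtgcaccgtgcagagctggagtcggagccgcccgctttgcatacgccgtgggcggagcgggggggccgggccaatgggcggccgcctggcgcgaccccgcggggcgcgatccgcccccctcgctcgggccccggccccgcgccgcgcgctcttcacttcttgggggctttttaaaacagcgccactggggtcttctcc
HOXD13, chr2:176092471-176092720, plus strand: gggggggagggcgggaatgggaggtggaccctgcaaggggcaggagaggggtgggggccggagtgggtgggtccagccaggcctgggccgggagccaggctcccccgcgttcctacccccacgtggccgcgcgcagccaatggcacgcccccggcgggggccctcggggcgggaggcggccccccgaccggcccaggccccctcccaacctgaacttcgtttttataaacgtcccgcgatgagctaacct
HOXC4 and HOXC5, chr12:54016638-54016887, plus strand: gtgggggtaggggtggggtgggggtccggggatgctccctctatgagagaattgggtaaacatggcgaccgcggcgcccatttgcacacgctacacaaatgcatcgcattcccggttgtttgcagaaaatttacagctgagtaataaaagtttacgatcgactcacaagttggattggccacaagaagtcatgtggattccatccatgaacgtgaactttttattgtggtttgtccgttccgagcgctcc
HOXD3, chr2:176157057-176157306, plus strand: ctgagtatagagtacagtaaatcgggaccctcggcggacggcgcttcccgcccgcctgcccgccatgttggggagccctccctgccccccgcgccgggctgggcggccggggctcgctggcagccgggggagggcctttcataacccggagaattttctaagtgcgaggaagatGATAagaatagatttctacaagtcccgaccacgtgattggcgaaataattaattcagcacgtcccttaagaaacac
The table held 27 promoters for 20 of the HOX genes. The core, GATA or TATC, occurred in 10 of the 27 (37.0%), beside 45.6% of all 35116 promoters of the table. The longer motif, the core GATA with A or T before it and A or G after it, searched on both strands, occurred in 5 of the 27 (18.5%), beside 22.3% of all promoters. The called genes with a promoter in the table, HOXA4, HOXA7, HOXA13 and HOXD13, held neither in this window, and these windows were 70.0%, 70.8%, 78.0% and 74.0% G or C. A match is a run of letters and not a measured binding site.

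HOXB13 fell slightly. Its signal was 16.02, 15.88, 15.76 and 15.82 on siGATA2 arrays 1 to 4 and 16.34, 16.23, 16.28 and 16.24 on siControl arrays 1 to 4. The highest siGATA2 array lay below the lowest siControl array, so the groups did not overlap. The means were 15.87 ± 0.110 and 16.27 ± 0.0517 (SD, n = 4 each), a log2 fold change of -0.40 ± 0.0982 (SE, limma adjusted p = 0.0183), or a 1.32-fold fall, and the exact permutation test (two-sided) reached p = 0.0286, the smallest that 4 arrays against 4 allow. This fall was well short of 2-fold, while the median of all genes stood at 0.09. With the row of the slide as a block the difference was -0.41 (limma adjusted p = 0.0690), and within the rows, which held 3 siGATA2 arrays and 1 siControl array or the reverse, it was -0.35 and -0.46. Without siControl array 4 or siGATA2 array 3 the adjusted p was 0.0501 in each case, at -0.42 and -0.37.

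HOXD13, the last gene of the HOXD cluster and a regulator of limb and urogenital development, had the lowest log2 fold change of the HOX genes tested, though not under normexp background correction. Its signal was 3.12, 2.92, 3.34 and 3.69 on siGATA2 arrays 1 to 4 and 5.46, 6.41, 5.94 and 6.22 on siControl arrays 1 to 4. Every siGATA2 array thus lay far below every siControl array, but the probe was dim, well above background on 1 siGATA2 array and 3 siControl arrays. The log2 fold change was -2.74 ± 0.245 (SE, limma adjusted p = 0.000147), and its size is uncertain with the siGATA2 arrays so close to background. It was -0.87 under normexp, where HOXB9 was -1.04 and HOXA7 -0.89. The normexp offset makes folds of dim probes smaller by the way it is built.

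The other 2 genes of the group rose. HOXA13, which patterns the distal limb and the urogenital tract, had signals of 7.52, 7.62, 8.64 and 8.79 on siGATA2 arrays 1 to 4 and of 6.32, 7.28, 6.75 and 7.21 on siControl arrays 1 to 4. Its siGATA2 arrays fell into a lower and a higher pair, and the lower pair stood just above the highest siControl array. The log2 fold change was 1.25 ± 0.360 (SE, limma adjusted p = 0.0361), or 2.38-fold. The call did not hold without siControl array 1, 2, 3 or 4 or without siGATA2 array 3 or 4, with values of 1.04 to 1.38 and an adjusted p of 0.0507 to 0.0869, and with the row of the slide as a block the value was 1.36 (limma adjusted p = 0.0815). HOXC13, known for its part in hair and nail formation, had signals of 10.34, 10.36, 10.74 and 10.83 on siGATA2 arrays 1 to 4 and of 9.69, 9.82, 9.60 and 9.73 on siControl arrays 1 to 4. These groups were wide apart, with a log2 fold change of 0.86 ± 0.144 (SE, limma adjusted p = 0.00317), or 1.82-fold. Under scaling to the E1A spike-ins, where the median of all genes moved to -0.43, HOXA13 and HOXC13 stood at 0.85 and 0.29 and were not called, HOXB13 stood at -1.20 and was not called, and HOXD13 stood at -3.24 and was called.

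**Figure D1:**
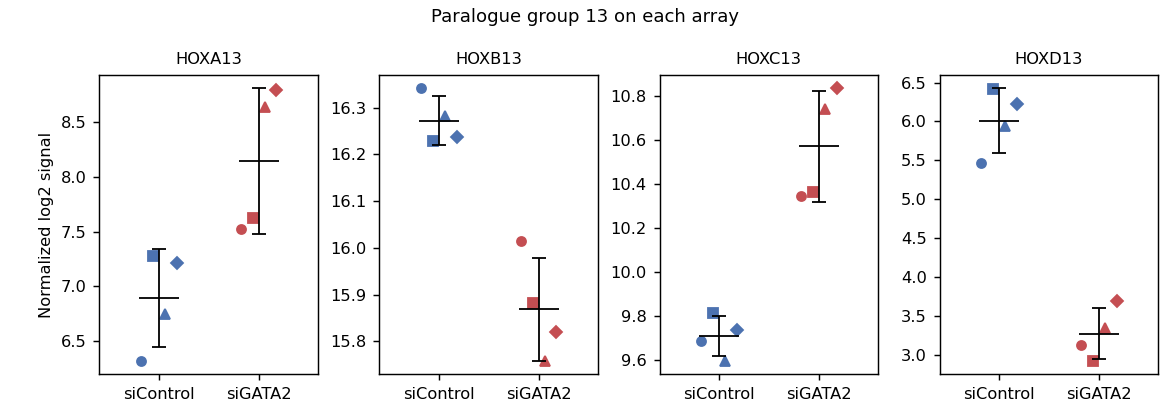
Normalized log2 signal of the group 13 genes on each array, with 1 panel per gene and its own axis range. Points are arrays 1 to 4 (circle, square, triangle, diamond), bars are the group mean and SD of 4 arrays, and in each panel the groups do not overlap, with siGATA2 lower for HOXB13 and HOXD13 and higher for HOXA13 and HOXC13.

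Among the central and other posterior genes, HOXA7 and HOXB9 fell. HOXA7, a central gene of the HOXA cluster, had signals of 5.49, 5.36, 5.89 and 5.90 on siGATA2 arrays 1 to 4 and of 7.04, 7.38, 7.29 and 7.30 on siControl arrays 1 to 4. All siGATA2 arrays were lower by over 1 log2 unit, and the log2 fold change was -1.59 ± 0.160 (SE, limma adjusted p = 0.000248), a 3.01-fold fall. HOXB9, a posterior gene of the HOXB cluster, had signals of 9.26, 9.11, 9.22 and 9.30 on siGATA2 arrays 1 to 4 and of 9.97, 10.51, 10.37 and 10.53 on siControl arrays 1 to 4. The siGATA2 arrays were close together and the siControl arrays were all higher, with a log2 fold change of -1.12 ± 0.145 (SE, limma adjusted p = 0.000887), a 2.18-fold fall. Both genes were called under all 23 alternatives tried, but under normexp HOXA7 was -0.89, short of 2-fold.

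HOXA4 and HOXA5, neighbours in the central HOXA cluster, rose. HOXA4 had signals of 9.76, 9.89, 10.60 and 10.68 on siGATA2 arrays 1 to 4 and of 9.11, 9.52, 9.63 and 9.45 on siControl arrays 1 to 4, a log2 fold change of 0.80 ± 0.243 (SE, limma adjusted p = 0.0436). As for HOXA13, siGATA2 arrays 3 and 4 were the higher pair. HOXA5, named after its values were seen, had signals of 8.94, 8.90, 8.98 and 8.81 on siGATA2 arrays 1 to 4 and of 8.69, 8.54, 8.53 and 8.60 on siControl arrays 1 to 4, a narrow difference of 0.32 ± 0.0944 (SE, limma adjusted p = 0.0410) that turned to -0.19 under scaling to the E1A spike-ins. The spike-ins were low on siControl array 1 alone. Both calls, of HOXA4 and of HOXA5, depended on single arrays. HOXA4 was not called without siControl array 1, 2, 3 or 4 or siGATA2 array 3 or 4 (0.65 to 0.87, adjusted p 0.0607 to 0.101 from limma), nor HOXA5 without siControl array 2, 3 or 4 or any 1 siGATA2 array (0.29 to 0.35, adjusted p 0.0547 to 0.114 from limma). With the row of the slide as a block they stood at 0.95 (adjusted p = 0.0640) and 0.28 (adjusted p = 0.164) by limma.

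Other HOX genes with bright probes gave differences near 0 or spread widely. HOXC6, a gene often raised in prostate cancer, had signals of 13.79, 13.80, 13.17 and 13.21 on siGATA2 arrays 1 to 4 and of 13.62, 13.26, 13.18 and 13.18 on siControl arrays 1 to 4, a log2 fold change of 0.19 (limma adjusted p = 0.526). HOXB6 and HOXC12 stood at 0.04 and -0.04, and neither was called under any of the 23 alternatives. HOXC9 was lower on every siGATA2 array (10.78 to 11.02) than on any siControl array (11.04 to 11.49), with a log2 fold change of -0.28 that was not called (limma adjusted p = 0.167). The other 18 HOX genes tested, HOXA5 among them, had a median log2 fold change of 0.18, and 17 of them were not called.

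HOXC4 had the highest log2 fold change of the HOX genes tested and was not called. Its signal was 12.86, 12.60, 11.19 and 10.96 on siGATA2 arrays 1 to 4 and 11.69, 9.67, 9.74 and 9.58 on siControl arrays 1 to 4. siGATA2 arrays 1 and 2 were high, siGATA2 arrays 3 and 4 were lower, and siControl array 1 lay among the siGATA2 arrays, apart from the other siControl arrays. The log2 fold change was 1.73 ± 0.618 (SE, limma adjusted p = 0.0770). Without siControl array 1 it was 2.24 (limma adjusted p = 0.0163).

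The sample titles hold a letter, whose meaning no source gives. siGATA2 arrays 1 to 4 carry the letters A, B, E and F, and siControl arrays 1 to 4 carry B, D, F and G. In 8 of the 32 HOX genes (25.0%) the mean of siGATA2 arrays A and B was at least 1 log2 unit from that of arrays E and F, beside 12.5% of all genes. Arrays A and B were higher in HOXA2, HOXA3, HOXB5, HOXC4 and HOXC5 and lower in HOXA13, HOXB7 and HOXD9, genes that are named here after their values were seen. HOXC5, whose RefSeq start is that of HOXC4, had signals of 7.79, 7.67, 6.30 and 6.20 on siGATA2 arrays 1 to 4 and of 6.79, 6.51, 5.98 and 6.37 on siControl arrays 1 to 4, so arrays A and B were high in both genes, but the siControl array of letter B stood well apart in HOXC4 alone of the pair. HOXB5 had signals of 7.25, 7.22, 5.96 and 5.24 on siGATA2 arrays 1 to 4 and of 8.20, 7.44, 7.32 and 7.40 on siControl arrays 1 to 4, which do not overlap, with a log2 fold change of -1.17 (limma adjusted p = 0.111).

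**Figure D2:**
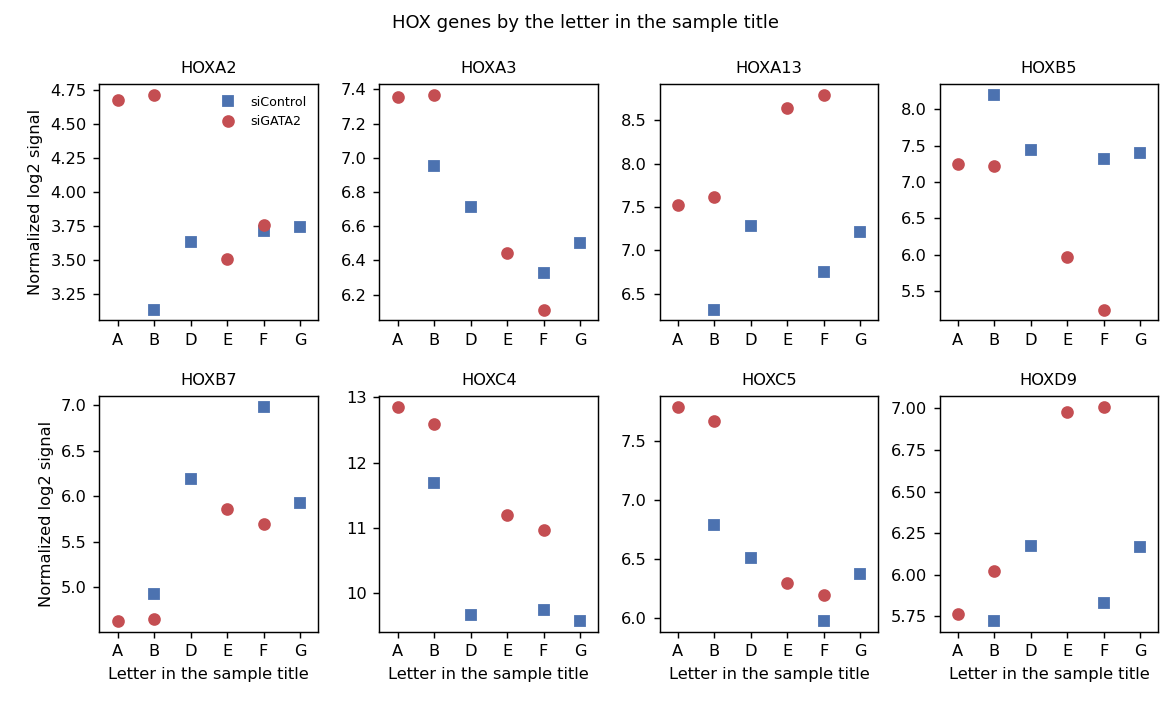
Normalized log2 signal by the letter in the sample title for the 8 HOX genes whose siGATA2 arrays A and B differed by 1 or more from arrays E and F, with siGATA2 as red circles and siControl as blue squares, 1 point per array and an own axis range per panel. In HOXC4 the siGATA2 arrays A and B (12.86 and 12.60) lie above arrays E and F (11.19 and 10.96), and the siControl array B (11.69) lies above the others.

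Letters B and F each hold 1 array of both groups, so the difference can be read within them. Each such difference rests on 1 array per group. The siControl arrays of these letters are siControl arrays 1 and 3, which had the fewest HOX probes well above background (22 and 17). The groups of the 8 called HOX genes do not overlap, which fixes the sign of these differences. Only their size can be read, and array quality limits it. HOXB13 was -0.46 within each of B and F, HOXD13 was -2.54 and -2.25, HOXA7 was -1.67 and -1.39 and HOXB9 was -0.86 and -1.07. The rises were 1.30 and 2.04 for HOXA13, 0.68 and 1.24 for HOXC13, 0.78 and 1.05 for HOXA4, and 0.20 and 0.28 for HOXA5. HOXC4 gave 0.90 and 1.22. With a block that sets the arrays of letters A and B apart from all others, 14 HOX genes were called, with the 8 above and HOXB5, HOXC4, HOXC9, HOXD8 and HOXD9 among them (of which HOXD8 has no bound on its fold), 6 lower and 8 higher, beside 20.0% and 24.9% of all genes. HOXC4 then stood at 1.28 (limma adjusted p = 0.000205).

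HOXA9, HOXA10, HOXB2 and HOXD9 had a second, dimmer probe. The probes of HOXA9 and of HOXA10 differed in sign, though neither HOXA10 probe was called. The brighter HOXA9 probe read 10.95, 11.04, 10.97 and 10.91 on siGATA2 arrays 1 to 4 and 11.62, 10.32, 10.68 and 10.57 on siControl arrays 1 to 4, with overlapping groups and a log2 fold change of 0.17 (limma adjusted p = 0.670). The dimmer one read 4.24, 4.13, 3.34 and 3.84 against 5.75, 5.44, 5.30 and 5.20, with no overlap. Its log2 fold change was -1.53 ± 0.221 (SE, adjusted p = 0.00155 from limma over all probes, 14.5% of which were called lower), and it was well above background on 3 arrays of each group. For HOXA10 the brighter probe stayed between 14.96 and 15.27 on all arrays, with a log2 fold change of 0.09, and the dimmer probe, well above background on all arrays, stood at -0.70 (limma adjusted p = 0.0980). With the mean over probes in place of the brighter probe, HOXA9 was -0.68 (limma adjusted p = 0.0456) and HOXA10 was -0.31 (limma adjusted p = 0.143). The brighter HOXA9 probe was called the other way without siControl array 1, at 0.44 (limma adjusted p = 0.0266), and without siControl arrays 1 and 3, at 0.52 (limma adjusted p = 0.0301). The array files name the same RefSeq transcript for both HOXA9 probes, and likewise for both HOXA10 probes. Both genes make several transcripts, and which of them each probe reads was not tested.

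**Figure D3:**
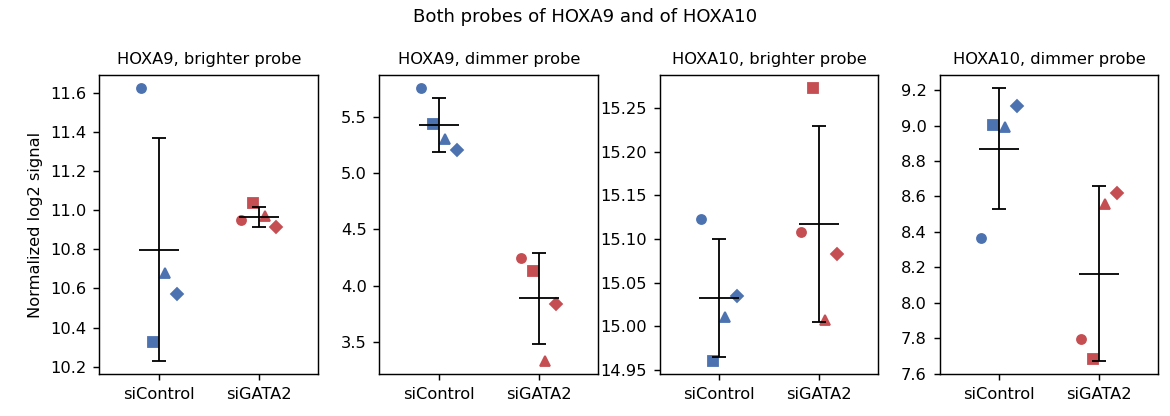
Normalized log2 signal of both probes of HOXA9 and of HOXA10 on each array, with an own axis range per panel. Points are arrays 1 to 4 (circle, square, triangle, diamond) and bars the group mean and SD of 4 arrays, and the groups are apart only for the dimmer HOXA9 probe, at 3.34 to 4.24 against 5.20 to 5.75.

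Further transcripts of the clusters were examined too. Of 24 such noncoding and other genes, 7 had a probe and 6 were tested, of which 3 were lower and none was higher, beside 14.2% and 12.3% of all genes, with a median of -0.69. PRAC1, a small nuclear protein gene of prostate and distal gut that lies next to HOXB13, had signals of 12.24, 12.15, 12.02 and 12.15 on siGATA2 arrays 1 to 4 and of 14.13, 13.61, 13.80 and 13.52 on siControl arrays 1 to 4. The groups were far apart, and the log2 fold change was -1.62 ± 0.149 (SE, limma adjusted p = 0.000167), a 3.08-fold fall beside the 1.32-fold fall of HOXB13. HAGLR, a long noncoding RNA of the HOXD cluster, had signals of 2.67 to 3.55 on the siGATA2 arrays, none of them well above background. It had 5.49 to 5.90 on the siControl arrays, 3 of them well above background. With each siGATA2 signal raised, where lower, to the lowest well above background on its array, the fall was 5.84-fold, against 6.11-fold as measured. This is no firm lower bound, as signals at background enter it, and the size of the fall is uncertain. HOXA11-AS, the antisense RNA of HOXA11, fell by 1.26 on the log2 scale ± 0.177 (SE, limma adjusted p = 0.00134), from 8.60 to 9.25 on the siControl arrays to 7.29 to 7.69 on the siGATA2 arrays, while HOXA11 itself was well above background on 1 array of each group. HOTAIR, a long noncoding RNA of the HOXC cluster, was higher on every siGATA2 array (12.31 to 12.80) than on any siControl array (12.11 to 12.23), with a log2 fold change of 0.35 that was not called (limma adjusted p = 0.0873).

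**Figure D4:**
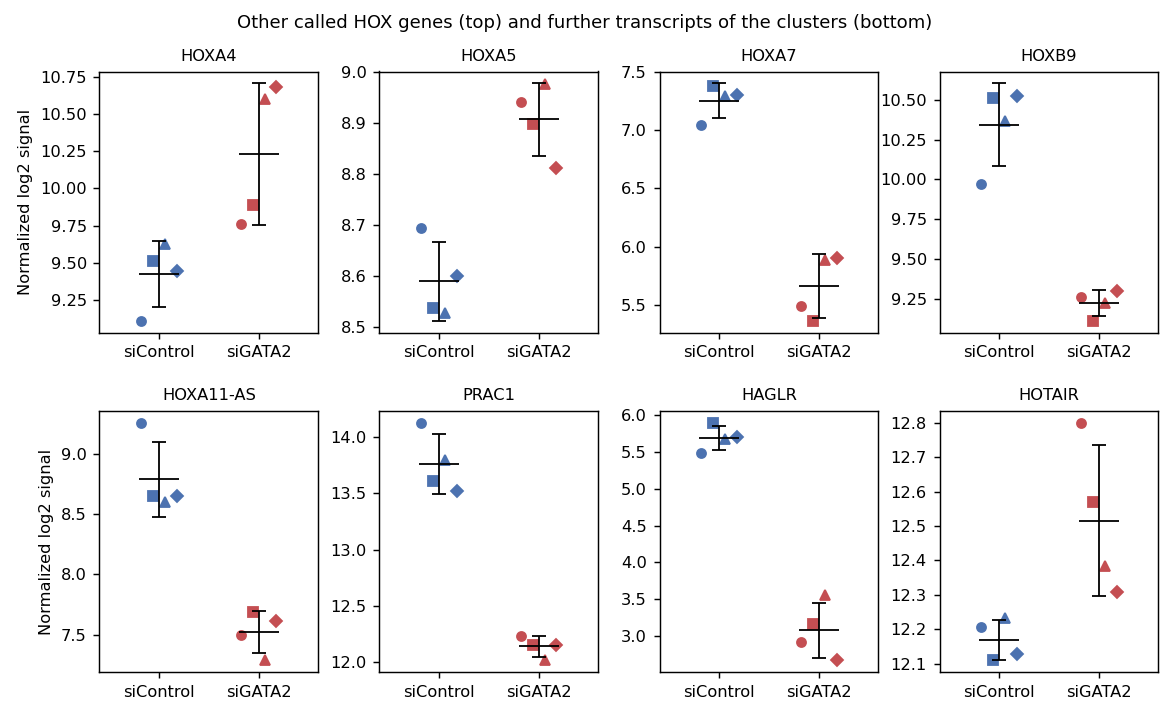
Normalized log2 signal on each array of the called HOX genes outside group 13 (top) and of 4 further transcripts of the clusters (bottom), with an own axis range per panel. Points are arrays 1 to 4 (circle, square, triangle, diamond) and bars the group mean and SD of 4 arrays. The siGATA2 arrays lie below the siControl arrays in HOXA7, HOXB9, HOXA11-AS, PRAC1 and HAGLR, and above them in HOXA4, HOXA5 and HOTAIR.

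The genes that act upon the HOX clusters moved in both directions. Of 21 Polycomb genes, which code for the complexes that silence the clusters, 7 were lower and 7 were higher (33.3% in each direction, beside 14.2% and 12.3% of all genes), with a median of -0.12. CBX2, a chromobox subunit of the canonical Polycomb complex, fell most at -1.86 (adjusted p = 0.000317), and CBX7, another such subunit, rose most at 1.22 (adjusted p = 0.00313, both from limma). These lists were chosen with results of these data known, and no test of a list as a whole was made.

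Of 16 trithorax, demethylase, insulator and elongation genes, 2 were lower and 2 were higher, with a median of 0.30. This was 12.5% in each direction, close to the 14.2% and 12.3% of all genes. WDR5, a core subunit of the histone methyltransferase complexes, stood at -0.67 (limma adjusted p = 0.00363), and KMT2A, the methyltransferase that keeps HOX genes active, stood at 1.01 (limma adjusted p = 0.0119). Of 16 retinoic acid genes tested, 3 were lower and 1 was higher (18.8% and 6.25%, beside the same shares of all genes), with a median of 0.20. CYP26A1, which breaks down retinoic acid, was lower at -1.03 (limma adjusted p = 0.000305). Its probe was dim, at 4.18 to 4.48 on the siGATA2 arrays and 5.23 to 5.41 on the siControl arrays. It was well above background on 4 siGATA2 and 3 siControl arrays, so the size of the fall is uncertain. DHRS3, which turns retinal back to retinol, was higher at 1.34 (limma adjusted p = 0.00206).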

How the data were processed

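The arrays hold RNA of LNCaP cells, 4 labelled siGATA2 and 4 labelled siControl, and groups and replicate numbers come from the labels. Spot intensity values and quality flags were deposited as written by Agilent Feature Extraction 11.0.1.1 (named in the submitters' processing notes), together with a matrix of log2 values that served as an alternative. In the methods the authors quantile-normalized the processed signal, filtered at 3 on the log2 scale and ran a t-test. The array design in the file headers differs from that in the methods.

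Here unflagged spots of each probe were averaged as log2 processed signal, and quantile normalization over all 8 arrays followed (limma 3.58.1, R 4.3.3). A symbol was found for 26364 of the 27902 probes that carry a RefSeq accession. Removing 1914 probes without annotation and those with a mean under 3 left 35514 probes. Probe values missing because every spot was flagged numbered 210 over all arrays. The brightest probe by the mean over the arrays stood for each of 28850 genes. Groups were compared with lmFit and eBayes and Benjamini-Hochberg adjustment over all genes, calling genes at an adjusted p under 0.05 and giving those with a fold of at least 2 beside. The fit was also run on simulated data, with independent noise of the same spread on all arrays. Such data hold no differences in array quality and no grouping by title letter, so the run cannot speak to those. A probe that no array of a group measured well above background got an approximate bound on its fold or no fold.

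Genes named are HOXB13, the rest of its paralogue group, other HOX genes well above background on all arrays of at least 1 group and either called by at least 2-fold or among the 10 brightest, GATA2, and the largest fall and rise called in each list. Some of the genes and lists tested are not reported or drawn here. The HOX genes and all lists were chosen with earlier results of these data known. Other settings tried were the 75th percentile or 7 E1A spike-in probes as the scale, normexp (offset 50), other filters, the mean over probes, the deposited matrix, the t-test that the methods name, an intensity trend, array weights, blocks by replicate number, title letter, title letter group and slide row, and leaving out arrays. The title letter group, the slide row and the joint removal of siControl arrays 1 and 3 were chosen after seeing the data. All arrays lay on 1 slide, so slide was no block. Arrays have no read depth, and their number and the signal over background limit the precision.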

Additional observations from a re-analysis of the deposited data

Results flagged for a closer look

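The signals of the HOX genes named by the rule above, of HOXA5 and of GATA2 were examined in each group of 4 arrays. A single array apart from the rest was sought, by its gap to the nearest other array divided by the range of the group. Of 32 groups 2 were flagged, close to the share of about 1 in 20 that chance gives. Both involve siControl array 1. HOXC4 read 11.69 there, where siControl arrays 2 to 4 read 9.58 to 9.74, a gap of 0.921 of the range. HOXC9 read 11.49 there, where siControl arrays 2 to 4 read 11.04 to 11.11, a gap of 0.836 of the range.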

How the results depend on the processing

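Of the 23 alternatives, HOXA7 and HOXB9 were called in all 23 and HOXD13 in all 22 that tested it, all lower. HOXC13 was called in 22, HOXB13 in 17, HOXA13 in 13, HOXA4 in 12 and HOXA5 in 11. HOX genes called higher, 4 in the report, numbered 0 under E1A spike-in scaling, 2 under the methods' t-test, 1 with slide row as a block, 8 with a block that sets title letters A and B apart from the rest, and 1 to 5 when 1 array was left out. Those higher by at least 2-fold, 1 in the report, numbered 0 under E1A scaling, the methods' t-test, normexp and slide row as a block, 3 with title letter as a random block and with the title letter groups, and 0 to 1 when 1 array was left out. Those lower by at least 2-fold, 3 in the report, numbered 1 under normexp.

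HOXB13 ranged from -0.45 to -0.37 when 1 array was left out and missed the threshold under E1A scaling (-1.20, adjusted p = 0.173), with slide row as a block (-0.41, 0.0690) and without siControl arrays 1 and 3 (-0.36, 0.0847), by limma. No source says whether the replicate numbers pair the arrays. Same-numbered arrays deviated together with correlations of 0.54, -0.31, 0.17 and 0.22. Other pairs of arrays were not examined, so these values cannot decide it. With the replicate block HOXB13 was -0.40 (adjusted p = 0.0594 by limma), HOXA5 was not called, HOXC4 was, and 2 genes were higher by at least 2-fold. GATA2 was called higher with array weights (0.79, adjusted p = 0.0321) and with the title letter groups (0.47, adjusted p = 0.0261), by limma, and ranged from 0.49 to 0.89 when 1 array was left out.

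Signs turned for genes that were not called in the report, and for HOXA5, which was called higher there at 0.32. HOXA10 was -0.051 under 75th percentile scaling, and -0.31 with the mean over probes, where HOXA9 was -0.68. Under E1A scaling HOXA10 was -0.66, HOXA5 -0.19, HOXA9 -0.44, HOXB6 -0.50 and HOXC6 -0.51, while the median of all genes moved from 0.09 to -0.43. The spike-ins averaged 11.13 on siControl array 1 and 13.45 to 13.83 on the others. HOXB6 was -0.00115 under normexp and -0.073 to 0.168 when 1 array was left out, and HOXC12 was 0.00315 with title letter as a random block and -0.113 to 0.035 when 1 array was left out. The cause of these changes was not tested.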
